A study of Mus musculus with 10 samples.

Results

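Tight junction genes were examined in the jejunum of mice in which the yeast enzyme NDI1 was expressed in the intestinal epithelium. The 9 genes are Cldn2, Cldn3, Cldn4, Cldn7, Cldn15, Cldn23, Ocln, Tjp1 and F11r. They were chosen by name, as claudins, a junctional adhesion molecule, occludin and a scaffold of the tight junction, and each was matched by its gene symbol to 1 of the 45707 rows of the table. Whole jejunum was sequenced from 5 Vil-Cre and 5 Vil-Cre:NDI1 mice, with 1 library per mouse. The animals were littermates, all of them male and 8 to 12 weeks old. They went without food for 16 to 18 h, received water by gavage and were sampled 1 h afterwards. Vil-Cre mice, the controls, carry Cre recombinase under the Villin promoter, which is active in intestinal epithelial cells. Vil-Cre:NDI1 mice carry the same Cre and also NDI1, an NADH dehydrogenase that Saccharomyces cerevisiae uses in place of complex I, behind a lox-stop-lox sequence at ROSA26. Both groups therefore carry the Cre transgene, and expression of NDI1 is directed to the epithelium, whereas the RNA came from all cells of the tissue.

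A tight junction seals the space between neighbouring epithelial cells at the apical end of their lateral membranes. Claudins form its strands and set which ions and small molecules pass between cells, some by building channels and others by closing the gap. Occludin and junctional adhesion molecule A lie in the same membrane domain, and zonula occludens proteins bind the cytoplasmic tails of these proteins and tie them to actin. In the jejunum, paracellular cation flow through claudin channels returns sodium to the lumen for sodium-coupled uptake of glucose.

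Values are normalized counts, that is, reads divided by 1 size factor per library. The libraries held between 10145705 and 12371530 reads on genes. NDI1 was listed at 0 in 4 Vil-Cre libraries and at 1 read in Vil-Cre 3, and at 982 to 2575 normalized counts in the Vil-Cre:NDI1 libraries. The 7 epithelial markers summed to 148549 to 184858 normalized counts in Vil-Cre and 158970 to 206881 in Vil-Cre:NDI1 mice, and none of them was at 0. The 6 hepatocyte genes summed to 64.7 to 1168 normalized counts in Vil-Cre and 52.8 to 98.8 in Vil-Cre:NDI1 mice, and pancreatic acinar genes reached at most 3.03.

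The 9 genes did not differ detectably between genotypes. In the limma fit over 14301 genes, 0 of 9 reached an adjusted p under 0.05, against 0.00699% of all genes tested, which is 1 gene, NDI1 itself. At an unadjusted p under 0.05, the count was also 0 of 9, against 4.24% of all genes. On the recovered reads, 0 of 9 had an adjusted p under 0.05 with DESeq2 (0.183% of all genes) and with edgeR (0.007%). At an unadjusted p under 0.05 the count was 1 of 9, Cldn3, with each tool, against 7.4% and 4.65% of all genes. In 0 of 9 genes did the 5 Vil-Cre and the 5 Vil-Cre:NDI1 mice lie apart without overlap, against 0.699% of all genes. The log2 fold change was above 0 for 4 genes and below 0 for 5, with a median of -0.01 beside 0.0052 over all genes tested. The limma adjusted p lay between 0.998 and 0.999 for all 9. The 95% intervals bound how large a difference could have been missed: for 8 genes they stayed within 1.5-fold in either direction, and for all 9 within 2-fold. All 9 passed the filter on low values.

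**Figure D1:**
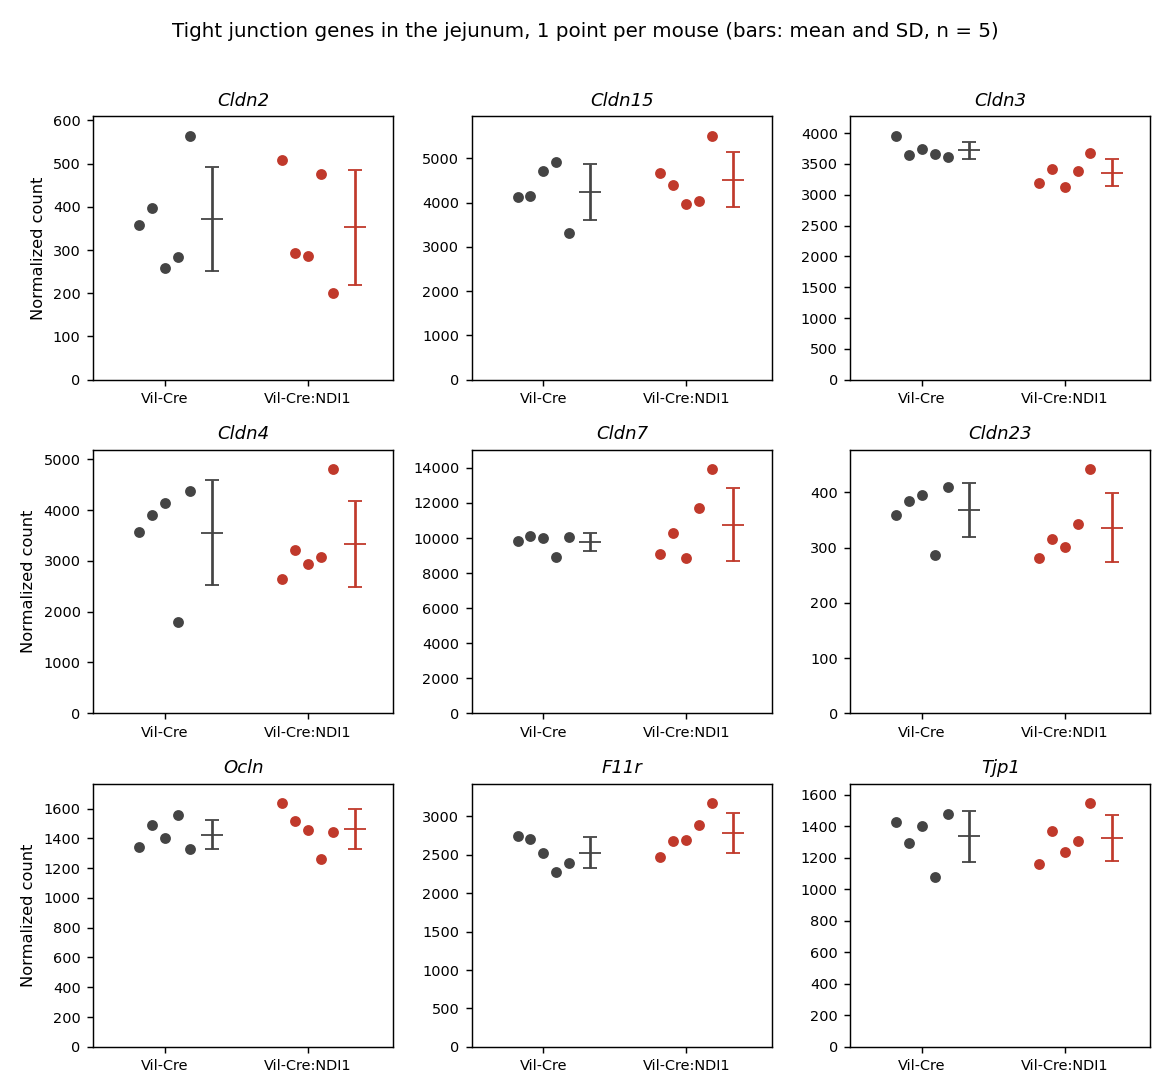
Normalized counts of the 9 tight junction genes, 1 panel per gene with the axis from 0, 1 point per mouse, and the mean with SD of each genotype (n = 5). The genotypes overlap in every panel, and in Cldn3 they do so only through Vil-Cre:NDI1 5 at 3681, above the lowest Vil-Cre mouse at 3611.

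**Figure D2:**
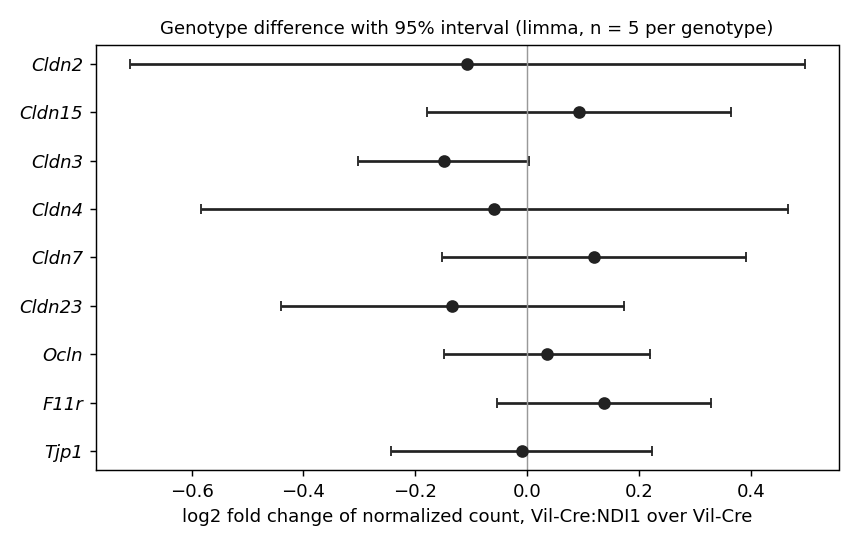
Log2 fold change of each gene, Vil-Cre:NDI1 over Vil-Cre, from the limma fit, with 95% intervals (n = 5 per genotype). Every interval includes 0, the narrowest belongs to Cldn3 (-0.30 to 0.0034) and the widest to Cldn2 (-0.71 to 0.50).

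The pore-forming claudins did not differ detectably by genotype, and Cldn2 varied the most from mouse to mouse of the 9 genes. Cldn2 (ENSMUSG00000047230, chrX:139800828-139811386 in GRCm38, plus strand) encodes a claudin that forms channels for cations and water and is best known from crypts. Its normalized counts in Vil-Cre mice 1 to 5 were 357, 397, 259, 285 and 564. In Vil-Cre:NDI1 mice 1 to 5 they were 509, 294, 287, 476 and 199.5. Vil-Cre 5 was the highest mouse, Vil-Cre:NDI1 1 and 4 stood well above the rest of their group, and the groups overlapped across most of their range. The means were 373 ± 120 and 353 ± 133 (SD, n = 5 each), a log2 fold change of -0.11 with a standard error of 0.28 (two-sided exact permutation p = 0.825).

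Cldn15 (ENSMUSG00000001739, chr5:136966616-136975858, plus strand) encodes a claudin that forms sodium-selective channels in the small intestine. Its normalized counts were 4116, 4156, 4705, 4919 and 3312 in Vil-Cre mice 1 to 5, and 4666, 4399, 3977, 4027 and 5506 in Vil-Cre:NDI1 mice 1 to 5. The lowest level was in Vil-Cre 5, the mouse with the most Cldn2, and the highest in Vil-Cre:NDI1 5, the mouse with the least Cldn2. The means were 4242 ± 625 and 4515 ± 622 (SD, n = 5 each), with a log2 fold change of 0.09 and an interval from -0.18 to 0.36 (exact permutation p = 0.516). The ratio of Cldn2 to Cldn15, in normalized counts not divided by length, thus spanned 0.0362 in Vil-Cre:NDI1 5 to 0.170 in Vil-Cre 5, a 4.70-fold range. The mean log2 ratio was 0.20 lower in Vil-Cre:NDI1 mice, which the exact permutation test did not separate from 0 (p = 0.651, adjusted p = 0.833 over 4 ratios). Without Vil-Cre 5 the difference turned to 0.05, and without Vil-Cre:NDI1 5 to 0.06.

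The 250 bases before the start sites of these genes are shown because their correlations with the enterocyte markers, given further on, had opposite signs. They come from RefSeq (GRCm38.p6), in which 8 of the 9 genes were matched, and capitals mark motifs found by letter search on both strands. The motifs were the CDX core TTTAT, the AP-1 site TGANTCA, the GC box GGGCGG, the TATA box TATAAA and the HNF1 half-site GTTAAT.
Cldn2, chrX:139800558-139800807, plus strand: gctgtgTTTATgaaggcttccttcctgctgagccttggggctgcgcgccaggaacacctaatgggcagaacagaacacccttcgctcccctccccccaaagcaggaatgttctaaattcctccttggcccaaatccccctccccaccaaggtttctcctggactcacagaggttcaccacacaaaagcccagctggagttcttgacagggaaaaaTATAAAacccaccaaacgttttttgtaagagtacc
Cldn15, chr5:136967619-136967868, plus strand: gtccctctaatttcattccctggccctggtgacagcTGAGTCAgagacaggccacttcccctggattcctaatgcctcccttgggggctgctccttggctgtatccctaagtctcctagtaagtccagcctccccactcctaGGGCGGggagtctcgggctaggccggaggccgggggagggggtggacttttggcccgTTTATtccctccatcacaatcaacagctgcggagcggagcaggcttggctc
The Cldn2 sequence held the CDX core with its leftmost base 244 and 34 bases before the start, the latter on the other strand and inside the TATA box that begins 35 bases before the start. The Cldn15 window lies inside the gene span of chr5:136966616-136975858, so it precedes an internal start. It held the CDX core at 51, an AP-1 site at 214 and a GC box at 108. Of 32851 mouse promoter windows of the same length, 37.3% held the CDX core, 12.4% the TATA box, 6.75% the AP-1 site, 32.7% the GC box and 6.43% the HNF1 half-site. A letter match is a description of the sequence and does not show binding.

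Among the barrier-forming claudins, Cldn3 had the tightest values and the smallest p of the 9 genes. Cldn3 (ENSMUSG00000070473, chr5:134986214-134987472, plus strand, 1 exon) encodes a sealing claudin. Its normalized counts were 3954, 3639, 3739, 3660.1 and 3611 in Vil-Cre mice 1 to 5. They were 3189, 3420.2, 3123, 3379.6 and 3681 in Vil-Cre:NDI1 mice 1 to 5. In all, 4 of the 5 Vil-Cre:NDI1 mice lay below every Vil-Cre mouse, and Vil-Cre:NDI1 5 lay within the Vil-Cre range. The means were 3720 ± 139 and 3358 ± 220 (SD, n = 5 each), a log2 fold change of -0.15 with a standard error of 0.07 (limma p = 0.0544 and adjusted p = 0.998, exact permutation p = 0.0317). The permutation p is unadjusted and 1 of 9 such tests. Its log2 fold change was below 0 under all 23 other settings tried, from -0.23 to -0.12, and the lowest adjusted p among them was 0.425. Its unadjusted p was under 0.05 in 5 of these settings. They were quantile normalization (limma, unadjusted p = 0.00356, adjusted p = 0.999), equal library totals (limma, 0.00645 and 0.975), DESeq2 (0.0154 and 0.504), edgeR (0.0442 and 0.997) and the fit without Vil-Cre:NDI1 5 (limma, 0.022 and 0.999). The ratio of Cldn15 to Cldn3, the sodium channel against the sealing claudin, was taken on normalized counts not divided by length. It ran from 0.917 in Vil-Cre 5 to 1.496 in Vil-Cre:NDI1 5. Per kb of exon, Cldn3 lay above Cldn15 in 10 of 10 mice. The mean log2 ratio of Cldn15 to Cldn3 was 0.24 higher in Vil-Cre:NDI1 mice (exact permutation p = 0.0794, adjusted p = 0.317 over 4 ratios). Without Vil-Cre 4 the unadjusted exact permutation p of that ratio was 0.0317. Cldn3 overlaps the antisense gene Wbscr25 by 40 bases of exon, where the mean of that gene was 6.43 normalized counts. The hepatocyte sum was also lower in Vil-Cre:NDI1 mice (exact permutation p = 0.0317, unadjusted and 1 of several marker sums). Across mice, with the genotype mean subtracted, Cldn3 and the hepatocyte markers gave r = 0.251 (permutation p = 0.483, adjusted p = 0.621 over 72 relations). The part of hepatocyte RNA in the genotype difference of Cldn3 was not tested.

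Cldn4 (ENSMUSG00000047501, chr5:134945119-134946934, minus strand, 1 exon), whose product seals against cations, lies 39279 bases from Cldn3. Its normalized counts were 3575, 3899, 4136, 1792 and 4382 in Vil-Cre mice 1 to 5, and 2642, 3222, 2943, 3069 and 4799 in Vil-Cre:NDI1 mice 1 to 5. Vil-Cre 4 and Vil-Cre:NDI1 5 were set apart from their groups, the one low and the other high, and 4 of the 5 Vil-Cre:NDI1 mice lay between Vil-Cre 4 and the other Vil-Cre mice. The means were 3557 ± 1031 and 3335 ± 846 (SD, n = 5 each), with a log2 fold change of -0.06 and an interval from -0.58 to 0.47 (exact permutation p = 0.722). Despite their closeness on the chromosome, the ratio of Cldn4 to Cldn3, in normalized counts not divided by length, ran from 0.490 in Vil-Cre 4 to 1.30 in Vil-Cre:NDI1 5. The difference in mean log2 ratio was 0.09 (exact permutation p = 0.825, adjusted p = 0.833). Leaving out Vil-Cre 4 turned that difference to -0.13, and leaving out Vil-Cre:NDI1 5 turned it to -0.015.

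Cldn7 (ENSMUSG00000018569, chr11:69964779-69967885, plus strand) encodes a claudin found along the lateral membrane as well as at the junction, where it pairs with EpCAM. Its normalized counts were 9808, 10092, 10004, 8903 and 10077 in Vil-Cre mice 1 to 5, and 9078, 10279, 8836, 11720.4 and 13909.7 in Vil-Cre:NDI1 mice 1 to 5. The Vil-Cre mice were close together apart from Vil-Cre 4, whereas Vil-Cre:NDI1 2, 4 and 5 lay above all of them and Vil-Cre:NDI1 3 below all of them. The means were 9777 ± 502 and 10765 ± 2098 (SD, n = 5 each), with a log2 fold change of 0.12 and an interval from -0.15 to 0.39 (exact permutation p = 0.373).

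Cldn23 (ENSMUSG00000055976, chr8:35824712-35826559, minus strand), a claudin of differentiated surface epithelium, had normalized counts of 359.8, 384, 396, 286 and 409.9 in Vil-Cre mice 1 to 5. The Vil-Cre:NDI1 mice 1 to 5 had 281, 315, 300.2, 343 and 441. As for Cldn4, Vil-Cre 4 was the lowest of its group and Vil-Cre:NDI1 5 the highest of all mice. The log2 fold change was -0.13 with an interval from -0.44 to 0.17 (means 367 ± 48.9 and 336 ± 62.9, SD, n = 5 each, exact permutation p = 0.397).

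Occludin, junctional adhesion molecule A and zonula occludens 1 also showed no detectable difference. Ocln (ENSMUSG00000021638, chr13:100496507-100552718, minus strand), a membrane protein that regulates the leak of larger molecules, had normalized counts of 1344, 1493, 1402, 1560.1 and 1331 in Vil-Cre mice 1 to 5, and 1637, 1519, 1456, 1263 and 1444 in Vil-Cre:NDI1 mice 1 to 5. The highest and the lowest mouse were both Vil-Cre:NDI1 mice. The log2 fold change was 0.04 with an interval from -0.15 to 0.22 (means 1426 ± 98.6 and 1464 ± 136, SD, n = 5 each, exact permutation p = 0.603), and its sign turned under 3 other scalings.

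F11r (ENSMUSG00000038235, chr1:171437535-171464603, plus strand) encodes junctional adhesion molecule A, an immunoglobulin-like protein that helps to place the junction. Its normalized counts were 2747, 2705, 2521, 2272 and 2389 in Vil-Cre mice 1 to 5, and 2474, 2685, 2687, 2889.9 and 3174 in Vil-Cre:NDI1 mice 1 to 5. Vil-Cre:NDI1 4 and 5 lay above every Vil-Cre mouse, and the other 3 lay within the Vil-Cre range. The log2 fold change of 0.14 had an interval from -0.05 to 0.33 (means 2527 ± 203 and 2782 ± 264, SD, n = 5 each, exact permutation p = 0.135).

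Tjp1 (ENSMUSG00000030516, chr7:65296165-65527781, minus strand) encodes zonula occludens 1, the scaffold under the junction. Its normalized counts were 1429.7, 1294, 1403, 1075 and 1475 in Vil-Cre mice 1 to 5, and 1161, 1370.3, 1234, 1309 and 1547 in Vil-Cre:NDI1 mice 1 to 5. Vil-Cre 4 was again the lowest mouse and Vil-Cre:NDI1 5 the highest. The log2 fold change was -0.01 with an interval from -0.24 to 0.22 (means 1335 ± 160 and 1324 ± 147, SD, n = 5 each, exact permutation p = 0.913). The ratio of Ocln to Tjp1, in normalized counts not divided by length, ran from 0.902 to 1.45 over the 10 mice. It showed no detectable difference between genotypes (exact permutation p = 0.833).

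Per length, the genes fell into an order that the means of both genotypes shared. In normalized counts per kb of exon, the means over 10 mice were 5272 ± 785 for Cldn7, 2811 ± 205 for Cldn3, 2061 ± 285 for Cldn15, 1897 ± 494 for Cldn4 and 997 ± 97.4 for F11r. They were 342 ± 26.9 for Ocln, 190.3 ± 30.1 for Cldn23, 170.2 ± 18.6 for Tjp1 and 109 ± 36.1 for Cldn2 (SD, n = 10). Cldn7, the partner of EpCAM, stood at rank 108 of 14255 genes, in the top 0.758%. Most neighbours kept their order in 10 of 10 mice. The exceptions were Cldn15 and Cldn4, with Cldn15 above in 5 of 10 mice, and Cldn23 with Tjp1 and Tjp1 with Cldn2, where the order held in 9 of 10. The order of the means was the same when the longest transcript was used as the length.

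**Figure D3:**
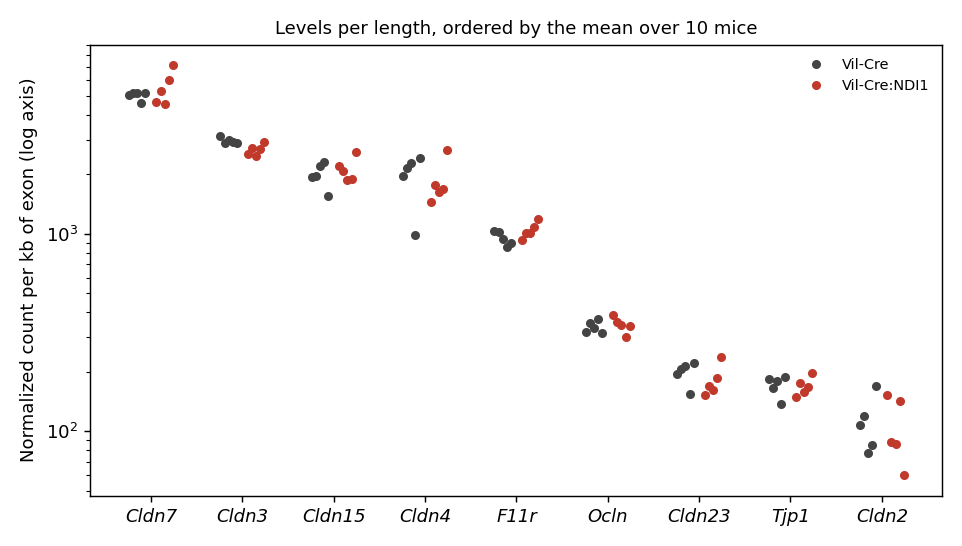
Normalized count per kb of exon (log axis) of the 9 genes, ordered by the mean over 10 mice, 1 point per mouse and genotypes side by side. Cldn7 at 4536 to 7141 lies above all others. The points of Cldn15, at 1559 to 2592, lie within the wider range of Cldn4, at 987 to 2642.

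The 6 claudins carried nearly all of the claudin signal of the tissue. Of the summed level per length of 23 claudins in the table, they made up 98.6% to 99.4% in the 10 mice. Cldn7 took 42.2% on average, Cldn3 22.7%, Cldn15 16.6%, Cldn4 15.1%, Cldn23 1.52% and Cldn2 0.891%. Of the 17 other claudins, 3 (Cldn16, Cldn17 and Cldn24) were listed at 0 in all mice, and 12 more stayed at or below 20.8 normalized counts in every mouse. The sealing claudins Cldn1 and Cldn8 and the stomach claudin Cldn18 were among the 12, and only Cldn5, known from endothelium, and Cldn12 passed the filter. Cldn12 had 287 ± 64.8 normalized counts in Vil-Cre and 399.9 ± 161 in Vil-Cre:NDI1 mice (SD, n = 5 each, log2 fold change 0.41, limma adjusted p = 0.998), and Cldn5 42.8 ± 6.25 and 32.9 ± 6.13 (log2 fold change -0.37, limma adjusted p = 0.998).

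Within the claudin pool, the share of Cldn3 was 25.1%, 22.9%, 22.8%, 26.1% and 22.9% in Vil-Cre mice 1 to 5, and 22.4%, 22.2%, 22.8%, 21.1% and 18.5% in Vil-Cre:NDI1 mice 1 to 5. The groups touched but did not overlap, at 22.83% for the lowest Vil-Cre and 22.82% for the highest Vil-Cre:NDI1 mouse. The means were 24.0% ± 1.52 and 21.4% ± 1.74 (SD, n = 5 each). This comparison was added after the values were seen, and its exact permutation p of 0.00794, the smallest that 5 against 5 can give, became 0.183 when adjusted over the 23 claudins. Without Vil-Cre:NDI1 5 the exact p was 0.0556. The share of Cldn7 was 40.6% ± 0.754 and 43.8% ± 2.56 (SD, n = 5 each, exact permutation p = 0.0159, adjusted p = 0.183). Shares of 1 pool are tied to each other, so these are not separate results.

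The genes differed in how steady they were. On the log2 scale, the SD within genotype was 0.08 for Cldn3, 0.12 for Ocln, 0.13 for F11r and 0.17 for Tjp1. It was 0.20 for Cldn7, 0.21 for Cldn15, 0.23 for Cldn23, 0.44 for Cldn4 and 0.50 for Cldn2, beside a median of 0.29 over all genes tested. The counting error of Cldn2, from 366 reads per library on average, was 5.23% of its level, whereas its SD over the 10 mice was 33.1%, wider than counting error alone.

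Several members rose and fell together across mice. Over the 36 pairs, with the genotype mean subtracted and all 10 mice used, 6 had a Pearson correlation with an adjusted permutation p under 0.05, all of them positive. Cldn4 and Tjp1 gave r = 0.928 and rho = 0.903 (permutation p = 8.0e-05 and 0.00092, adjusted p = 0.00234 and 0.0166). Cldn4 and Cldn23 gave r = 0.928 and rho = 0.964 (permutation p = 0.00013 and 5.0e-05, adjusted p = 0.00234 and 0.0018). Without Vil-Cre 4 and Vil-Cre:NDI1 5, the 2 mice farthest out in Cldn4, r was 0.813 and 0.921. Cldn23 and Tjp1 gave r = 0.901 and rho = 0.855 (permutation p = 0.00035 and 0.00276, adjusted p = 0.0042 and 0.0331, r = 0.775 without these mice).

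Cldn7 was linked to Cldn23 with r = 0.881 and rho = 0.842 (permutation p = 0.00154 and 0.00369, adjusted p = 0.0139 and 0.0332, r = 0.829 without 2 mice). Its correlations with Cldn3 (r = 0.799, rho = 0.564) and F11r (r = 0.784, rho = 0.673) had an adjusted permutation p of 0.0356 for r, and of 0.215 and 0.179 for rho. Without the 2 farthest mice of each pair, r was 0.722 with Cldn3 and 0.755 with F11r. Leaving out only Vil-Cre:NDI1 5 lowered r to 0.566 with Cldn3 and 0.620 with F11r. When each library was instead scaled to its epithelial markers, 2 pairs reached an adjusted p under 0.05, of which Cldn4 with Cldn23 was among the 6. Vil-Cre:NDI1 5 had the smallest size factor (0.852) and the highest sum of normalized counts (12106474) of the 10 libraries. Pairs were not recomputed with libraries rescaled to equal totals. Vil-Cre 4 held the lowest and Vil-Cre:NDI1 5 the highest level of Cldn4 and of Tjp1, and the number of pairs fell to 3 without the former and 2 without the latter. Without Vil-Cre 5 it rose to 10. Ocln correlated below 0 with 7 of the other 8 genes, and none of these passed adjustment.

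**Figure D4:**
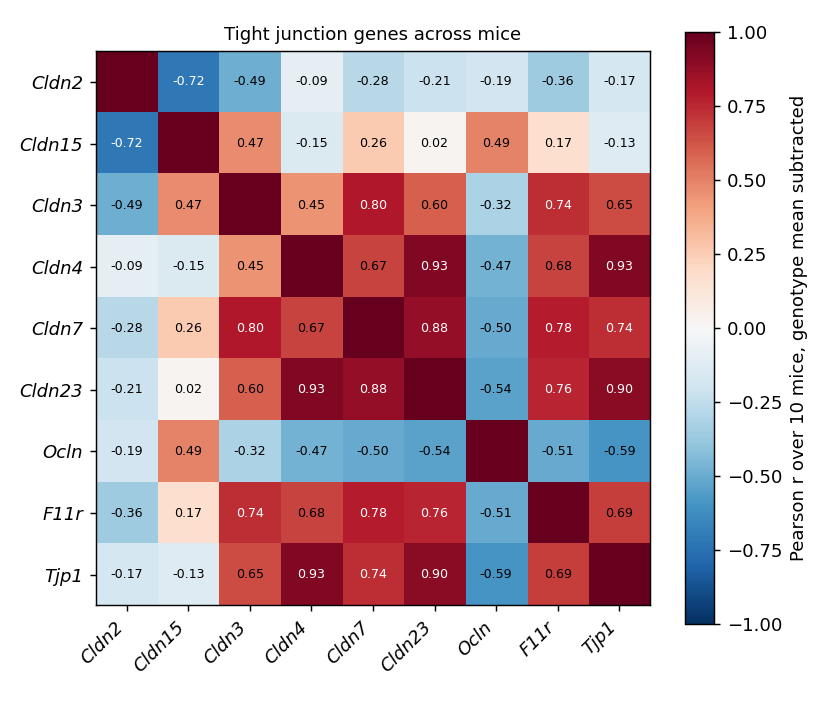
Pearson r between each pair of the 9 genes over 10 mice, genotype mean subtracted, on a colour scale from -1 to 1. Cldn4, Cldn7, Cldn23, Tjp1 and F11r form a block of values from 0.67 to 0.93, Ocln is negative with all but Cldn15, and Cldn2 with Cldn15 is -0.72.

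The promoter sequences of Cldn4 and Tjp1 are shown as those of a pair that varied together.
Cldn4, chr5:134946935-134947184, minus strand: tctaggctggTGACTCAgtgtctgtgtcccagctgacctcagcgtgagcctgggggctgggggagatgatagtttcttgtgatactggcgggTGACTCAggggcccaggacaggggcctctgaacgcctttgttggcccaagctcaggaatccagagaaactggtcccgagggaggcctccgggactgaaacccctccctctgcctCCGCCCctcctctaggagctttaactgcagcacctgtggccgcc
Tjp1, chr7:65371245-65371494, minus strand: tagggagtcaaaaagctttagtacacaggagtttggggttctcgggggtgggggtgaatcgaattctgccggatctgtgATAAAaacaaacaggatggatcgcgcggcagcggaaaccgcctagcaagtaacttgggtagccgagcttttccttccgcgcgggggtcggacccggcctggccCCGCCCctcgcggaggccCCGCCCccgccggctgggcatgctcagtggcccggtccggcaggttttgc
In these sequences from RefSeq (GRCm38.p6), Cldn4 held AP-1 sites beginning 240 and 158 bases before the start and a GC box at 44. The Tjp1 window lies inside the gene span of chr7:65296165-65527781, so it precedes an internal start. The sequence before the upstream end of that span was not searched. The window held the CDX core at 171 and GC boxes at 68 and 50, and the letters of the AP-1 site were not in it. Among the 8 matched genes, a GC box lay before at least 1 start of 7, the AP-1 site before 3 (Cldn4, Cldn15 and F11r) and the CDX core before 3 (Cldn2, Cldn15 and Tjp1), as a description of these windows.

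The pore-forming claudins varied in opposite directions with the enterocyte markers. Cldn2 and Cldn15 gave r = -0.716 and rho = -0.648 (permutation p = 0.0209 and 0.0498, adjusted p = 0.0753 and 0.179 over 36 pairs, r = -0.779 without 2 mice). Of 27 relations of the 9 genes with epithelial, enterocyte and crypt marker levels, 3 had an adjusted p under 0.05. Cldn15 rose with the 7 enterocyte genes, which include the brush-border enzymes Alpi, Lct and Sis (r = 0.874, rho = 0.842, permutation p = 0.0005 and 0.00394, adjusted p = 0.0135 and 0.0899, r = 0.824 without 2 mice). Cldn2 fell as they rose (r = -0.798, rho = -0.794, permutation p = 0.00234 and 0.00835, adjusted p = 0.0316 and 0.0899, r = -0.767 without 2 mice). F11r rose with the epithelial markers (r = 0.835, rho = 0.745, permutation p = 0.00393 and 0.0169, adjusted p = 0.0354 and 0.0933, r = 0.790 without 2 mice).

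With the crypt markers, such as Lgr5 and Olfm4, Cldn2 gave r = 0.735 and rho = 0.782 (permutation p = 0.00931 and 0.00999, adjusted p = 0.0628 and 0.0899, r = 0.672 without 2 mice). By rank, 0 of the 27 relations had an adjusted p under 0.05. With 9 mice, after leaving out each mouse in turn, the number of relations past adjustment ran from 0, without Vil-Cre 4 or Vil-Cre 5, to 5, without Vil-Cre 2, and was 1 without Vil-Cre 1 or Vil-Cre:NDI1 2, 3 or 4. Meanwhile r of Cldn15 with the enterocyte genes stayed between 0.790 and 0.923 and that of Cldn2 between -0.914 and -0.763. In bulk tissue, fewer cells of a type and less RNA per cell cannot be told apart. The enterocyte genes summed to 225772 to 409703 normalized counts in Vil-Cre and 364352 to 483467 in Vil-Cre:NDI1 mice (exact permutation p = 0.0952).

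**Figure D5:**
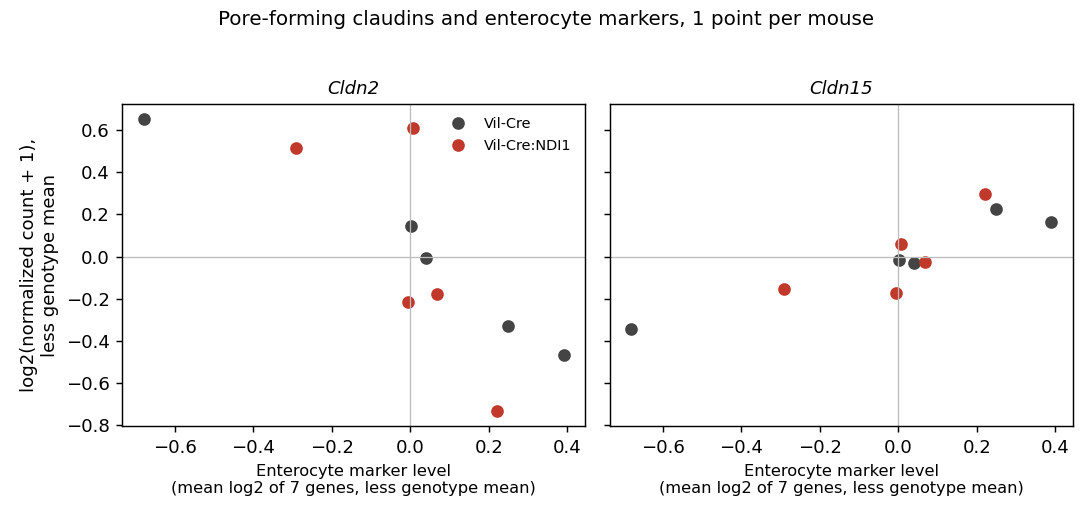
Cldn2 and Cldn15 (log2 of normalized count + 1) against the mean log2 level of 7 enterocyte markers, both less the genotype mean, 1 point per mouse. Cldn2 slopes down (r = -0.798) and Cldn15 up (r = 0.874), with Vil-Cre 5 at the low-enterocyte end of both panels.

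Among 8 further marker lists, chosen after seeing the data (72 relations), 4 had an adjusted p under 0.05, all with 5 smooth muscle genes. They were Cldn4 (r = 0.933, rho = 0.879, permutation p = 5.0e-05 and 0.00187, adjusted p = 0.00324 and 0.135), Tjp1 (r = 0.927, rho = 0.770), Cldn23 (r = 0.877, rho = 0.818) and F11r (r = 0.808, rho = 0.782). Adjusted permutation p-values of r for the last 3 were 0.00324, 0.00744 and 0.043, and those of rho 0.182. Without the 2 mice farthest out, r was 0.828, 0.786, 0.795 and 0.664 in this order. Smooth muscle genes summed to 10968 normalized counts in Vil-Cre 4, which also had the least Cldn4 and Tjp1, and to 12703 to 23053 in the other mice. The part of muscle in the correlations among these genes was not tested.

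The genes with the most similar course across the 10 mice were found among 9112 genes with a mean of at least 100 normalized counts, as a description. For Cldn2 they were Apoe (r = 0.938) and Isyna1 (0.937), and for Cldn15 Pdcd6 (0.976) and Cdhr5 (0.975), a protocadherin of the brush border. For Cldn3 they were Nras (0.943) and Snx9 (0.916), for Cldn4 Map1b (0.963) and Gprc5a (0.953), and for Cldn7 Emp1 (0.979) and Pfn1 (0.971). Cldn23 was most like Tinagl1 (0.963) and Map1b (0.957), a gene it shared with Cldn4. Ocln was most like Sh3bgrl3 (0.933) and Pdcl3 (0.917), F11r like Rap2a (0.960) and Ufl1 (0.942), and Tjp1 like Fam129a (0.975) and Slc16a3 (0.959).

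No other gene of the junctional complex was called either. Of 80 further junction genes in the table, 62 were tested, 0 reached an adjusted p under 0.05 in limma (0.00699% of all genes) and 2 had an unadjusted p under 0.05, beside 4.24% of all genes. The log2 fold change was above 0 for 37 and below 0 for 25, with a median of 0.06, and it was above 0 for 51.2% of all genes tested, with a median of 0.0052. Pard3, the polarity scaffold that helps to build the junction, had 525 ± 115 normalized counts in Vil-Cre and 724 ± 93.1 in Vil-Cre:NDI1 mice (SD, n = 5 each, log2 fold change 0.48, standard error 0.15, limma p = 0.00821 and adjusted p = 0.998, exact permutation p = 0.0476). The desmosomal cadherin Dsg2 had a log2 fold change of 0.24 (limma p = 0.0497 and adjusted p = 0.998, exact permutation p = 0.0794). All 7 desmosomal genes had a log2 fold change above 0, with a median of 0.10, and none passed the adjusted threshold. The lean was not particular to them. All 7 enterocyte markers were above 0, with a median of 0.24. Of the epithelial markers, 6 were above 0 and 1 below, with a median of 0.11. The part of epithelial content in the lean of the junction genes was not tested.

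The relatives named in this paragraph, apart from those given above, spanned log2 fold changes from -0.66 to 0.19. The scaffold Tjp3 had a log2 fold change of -0.05, and the scaffold cingulin (Cgn) 0.07. The tricellular proteins Marveld2 and Lsr had -0.04 each, and Marveld3 0.19. The immunoglobulin-like Cxadr had 0.10, the claudin-7 partner Epcam 0.09 and the adherens junction cadherin Cdh1 0.07. The smallest p in each remaining list belonged to Ildr1, another tricellular protein (-0.66), the protease matriptase gene St14 (0.15) and nectin 3, listed as Pvrl3 (0.13). The limma adjusted p was 0.998 for each gene of this paragraph.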

How the data were processed

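RNA was extracted from whole jejunum, and libraries were sequenced with single-end reads. Trimming, alignment with STAR to GRCm38 extended by NDI1, and gene counting with Salmon were done by the authors, who then applied DESeq2 size factors. What they deposited is a normalized signal per gene, called normalized counts. The annotation release and the strand setting of the counting are not given in the sources used here. In every library, 100% of non-zero values were whole multiples (tolerance 0.001) of the value of 1 read. In the libraries Vil-Cre 3 and 4 it was so near to 1 that rounding could not be told from whole reads, so tests on recovered reads were run with all 10 and with the other 8 libraries.

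Genotypes were compared with limma 3.58.1 (R 4.3.3) on log2(value + 1), which understates changes of low genes, with a variance trend, over genes with at least 10 normalized counts in at least 5 mice and Benjamini-Hochberg adjustment at 0.05. Single values were compared with two-sided exact permutation tests over 252 assignments. Correlations used 100000 permutations. DESeq2 1.42.0 and edgeR 4.0.16, other pseudocounts (0.1 and 8), filters and scalings, a replicate block and leaving out each mouse were alternatives. The fits were tested on simulated data. P-values judge differences and correlations against the variation between these mice. No library was a duplicate of another. Lengths and positions came from GENCODE M21 (GRCm38). The members and lists were chosen with earlier results of these data known. Genes named are the 9 members, fixed relatives, NDI1, the gene with the smallest p in each junction list and the 2 genes most like each member. Another gene that this rule takes is not reported here.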

Additional observations from a re-analysis of the deposited data

Results flagged for a closer look

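In 8 of 56 groups of 5 values, 1 mouse stood apart from the others by Dixon's criterion at a critical value of 0.71. Chance alone would give about 2.8 if the groups were independent and their values normal. The groups shared mice, the ratios reused genes counted singly, and some genes were mostly at 0. The count of 8 therefore does not show an excess. Vil-Cre:NDI1 5 had 4799 normalized counts of Cldn4 beside 2642 to 3222 in the rest of its group, and its log2 ratio of Cldn4 to Cldn3 was 0.38 beside -0.27 to -0.09. Vil-Cre 4 had 8903 normalized counts of Cldn7 beside 9808 to 10092 in the rest. Vil-Cre:NDI1 4 had 330.03 normalized counts of Marveld2, the tricellular protein tricellulin, beside 363 to 376. The remaining flags were of genes with few reads. Vil-Cre 3 had 13.0 normalized counts of Cldn1 beside at most 3.28, and Vil-Cre 2 had 20.8 of Cldn8 beside 5.01 to 7.77. A single read set apart Cldn18 in Vil-Cre:NDI1 2, at 0.911 normalized counts, and NDI1 in Vil-Cre 3, at 1.00, with the other 4 mice of each group at 0.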

How the results depend on the processing

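Under the 23 other settings, 0 of the 9 genes passed an adjusted p of 0.05, and Cldn15, Cldn3, Cldn7, Cldn23 and F11r kept their direction in each. The sign of Ocln turned with equal library totals (-0.027), quantile normalization (-0.010) and scaling to epithelial markers (-0.025). Leaving out 1 mouse moved the log2 fold change of Cldn2 over -0.26 to 0.076, of Cldn4 over -0.29 to 0.033, of Ocln over -0.0059 to 0.087 and of Tjp1 over -0.086 to 0.036. The genotype difference in log2 ratio then ran from -0.37 to 0.058 for Cldn2 to Cldn15, 0.17 to 0.30 for Cldn15 to Cldn3 (unadjusted exact p = 0.0317 without Vil-Cre 4), -0.13 to 0.19 for Cldn4 to Cldn3 and -0.042 to 0.15 for Ocln to Tjp1, and that in the Cldn3 share from -2.90 to -1.83 percentage points. All genes called numbered 2 at a minimum of 50 normalized counts, 31 with DESeq2 (16 higher, 15 lower), 276 with DESeq2 on the 8 libraries (152 higher, 124 lower) and 1 to 3 without 1 mouse, beside 1. Pairs numbered 2 when scaled to epithelial markers, 4 without subtracting the genotype mean and 2 to 10 without 1 mouse, beside 6. Marker relations numbered 1 without subtracting the genotype mean and 0 to 5 without 1 mouse, beside 3. Per kb of the longest transcript, Cldn7 stood at 7693. Same-numbered mice correlated by -0.12 to 0.14 in their deviations. These values had no reference to be judged against, so they do not decide whether the numbers pair the mice. The fit with a replicate block called 1 gene and 0 of the 9. No fold is drawn from the claudins that stayed at or below 20.8 normalized counts. The cause of these changes was not tested.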
